A study of Mus musculus with 15 samples.

Results

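The receptors for colony-stimulating factors, and CSF1, the ligand of CSF1R, were followed in mouse microglia after an antibody against TREM2. The members are 6 listed genes of the 32372 in the files, chosen by name: the ligand gene Csf1 and the receptor genes Csf1r, Csf2ra, Csf2rb, Csf2rb2 and Csf3r. All 6 were detected and all 6 passed the filter on low counts. CSF1R is a receptor tyrosine kinase that binds CSF1 and interleukin-34, and microglia need it to survive and divide. CSF2RA is the alpha chain of the receptor for GM-CSF and signals with the beta common chain CSF2RB, which also serves the interleukin-3 and interleukin-5 receptors. CSF2RB2 is a second beta chain of the mouse, specific for interleukin-3, and CSF3R is the receptor for G-CSF, best known from neutrophils.

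The libraries came from 15 male hTfR knock-in mice (C57BL/6J, 3.5 months of age), in which the apical domain of the human transferrin receptor is knocked in, so that the antibody transport vehicle (ATV, an Fc that binds this receptor) can carry an antibody into the brain. Every mouse received 1 dose of 10 mg/kg. The 12 treated mice received ATV:4D9, an ATV antibody against mouse TREM2, a receptor of microglia, and were sampled at day 1, 7, 14 or 28, with 3 mice per day. The 3 control mice received ATV:RSV, the control antibody on the same vehicle, and were sampled at day 1. Each of 3 batches held 1 mouse of each of the 5 groups. Days 7, 14 and 28 had no control of their own day, so day of sampling and treatment cannot be told apart there. The same 3 ATV:RSV mice served as control for all 4 days, and those comparisons share them.

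Cells of the cortex and hippocampus were enriched with CD45 beads and sequenced with a 3′ kit that tags each mRNA molecule with a unique molecular identifier (UMI). The 102043 cells carried 707518630 UMIs, and 32341960 to 70307384 of them fell to each mouse. Mean UMIs per cell were 6154 ± 439 (SD, n = 3 mice) in ATV:RSV, 9329 ± 507 at day 1 of ATV:4D9 and 6119 to 6547 as group means at the later days. The cells are labelled microglia, and 101907 of 102043 had a UMI of at least 3 of 8 microglia markers (among them P2ry12, Tmem119, Cx3cr1, Sall1, Siglech, Fcrls and Gpr34). Only 136 cells fell short of this, fewer than the 453 with border macrophage markers given below. It therefore does not separate microglia from such cells. The summed level of the 8 microglia markers was lower at day 1 of ATV:4D9 (12629 to 14235 CPM) than in ATV:RSV (19095 to 20496 CPM, where CPM are UMI counts scaled to the same total in every library). It also lay below every ATV:RSV mouse at day 7 (17196 to 17708 CPM) and day 14 (18262 to 18511 CPM), and overlapped ATV:RSV at day 28. These sums were scaled by library total only, without the TMM factors used for the members below. Whether the gaps at days 7 and 14 hold with those factors was not tested. At least 3 border macrophage markers were seen in 453 cells, which held 0.722% to 1.02% of the UMIs of each member. Such cells numbered 15 to 27 in each ATV:RSV mouse and 60 to 75 in each mouse at day 1 of ATV:4D9, and without cells that had 2 or more markers of another cell type the day 1 calls of Csf1, Csf1r, Csf2ra and Csf3r were kept. The day 1 call of Csf2rb was lost. The median percent of mitochondrial UMIs was 3.11 to 3.38 in the ATV:RSV mice and 3.96 to 4.496 at day 1 of ATV:4D9, and was also above every ATV:RSV mouse at day 7 (3.49 to 4.04). At day 1 the 7 monocyte markers summed to 14.3 to 18.8 CPM, against 4.92 to 13.2 CPM in ATV:RSV. Cells with at least 3 of them numbered 0 to 1 in each mouse of both groups. The part of these values and of the lower microglia markers in the results was not tested. Barcode sequences found in more than 1 mouse belonged to 2579 cells (2.53%).

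The member that rose most at day 1 (Csf1), the receptor chain that rose (Csf2ra) and the receptor gene that fell most (Csf3r) are shown by the 250 bases before their RefSeq start (build GRCm38.p6, 5′ to 3′ on the strand of the gene). Capitals mark matches on either strand to 4 motifs, which were chosen after the sequences had been seen: the PU.1 core GAGGAA, the C/EBP motif TTGCNNAA, the STAT motif TTCNNNGAA and the NF-kB consensus. Csf1 lies on chromosome 3 (chr3:107741048-107760469, minus strand, mm10, GENCODE M21), and the stretch is chr3:107760470-107760719. Csf2ra lies on chromosome 19 (chr19:61223957-61228429, minus strand), and the stretch is chr19:61228419-61228668. Csf3r lies on chromosome 4 (chr4:126024550-126044440, plus strand), and the stretch is chr4:126024409-126024658.
Csf1: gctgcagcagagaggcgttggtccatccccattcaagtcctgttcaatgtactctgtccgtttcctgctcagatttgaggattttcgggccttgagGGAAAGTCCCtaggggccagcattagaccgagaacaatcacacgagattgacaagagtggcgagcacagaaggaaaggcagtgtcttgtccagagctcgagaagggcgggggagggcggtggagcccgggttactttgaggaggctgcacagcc
Csf2ra: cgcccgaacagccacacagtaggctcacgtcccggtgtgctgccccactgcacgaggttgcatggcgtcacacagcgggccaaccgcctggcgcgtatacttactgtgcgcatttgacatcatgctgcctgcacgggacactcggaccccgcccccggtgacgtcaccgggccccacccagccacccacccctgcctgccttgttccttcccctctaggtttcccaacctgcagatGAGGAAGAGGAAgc
Csf3r: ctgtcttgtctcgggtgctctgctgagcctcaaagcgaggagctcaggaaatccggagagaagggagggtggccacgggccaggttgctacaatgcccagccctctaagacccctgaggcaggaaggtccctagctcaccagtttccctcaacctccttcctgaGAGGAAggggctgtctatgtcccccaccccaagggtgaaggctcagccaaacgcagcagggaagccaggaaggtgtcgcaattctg
The Csf1 stretch held 1 match to the NF-kB consensus, 154 to 145 bases before the start, and none to the other 3 motifs. The Csf2ra stretch held 2 PU.1 cores next to each other, 14 to 9 and 8 to 3 bases before the start, and the Csf3r stretch held 1, 86 to 81 bases before it. The RefSeq starts of Csf2ra and Csf3r lie inside the GENCODE genes given above, so the PU.1 core of Csf3r lies within that gene, as does the nearer core of Csf2ra, while the farther one crosses its end. Of 32851 promoters of this length, 23.3% held the PU.1 core, 9.56% the C/EBP motif, 7.02% the STAT motif and 3.90% the NF-kB consensus.

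At day 1 of ATV:4D9 the ligand gene Csf1 and the receptor chain Csf2ra were higher in CPM than in ATV:RSV, and Csf1r and Csf3r were lower. Levels are given in CPM, which relate the UMIs of a gene, summed over the cells of a mouse, to all UMIs of that mouse after TMM scaling, and changes were tested with limma-voom on these sums with Benjamini-Hochberg adjustment over 14260 genes. Of the 6 members, 5 passed an adjusted p of 0.05 against ATV:RSV at day 1, where 69.2% of all genes tested passed, so a call by itself says little about a member at this day. Csf1 and Csf2ra were among the 34.7% of all genes called higher, and Csf1r, Csf3r and Csf2rb were among the 34.6% called lower. Over the 5 groups the F test called 5 members, with 66.5% of all genes called. At day 7, 2 members were called against a background of 3.98%. None was called at day 14 (background 0.400%) or at day 28 (background 0%) by limma-voom, edgeR or DESeq2, and 2 members at day 14 and 1 at day 28 had an unadjusted p under 0.05. Over all genes, 770 (5.40%) had an unadjusted p under 0.05 at day 14 and 571 (4.00%) at day 28 in limma-voom, and at day 28 edgeR called 0 and DESeq2 called 14.

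**Figure D1:**
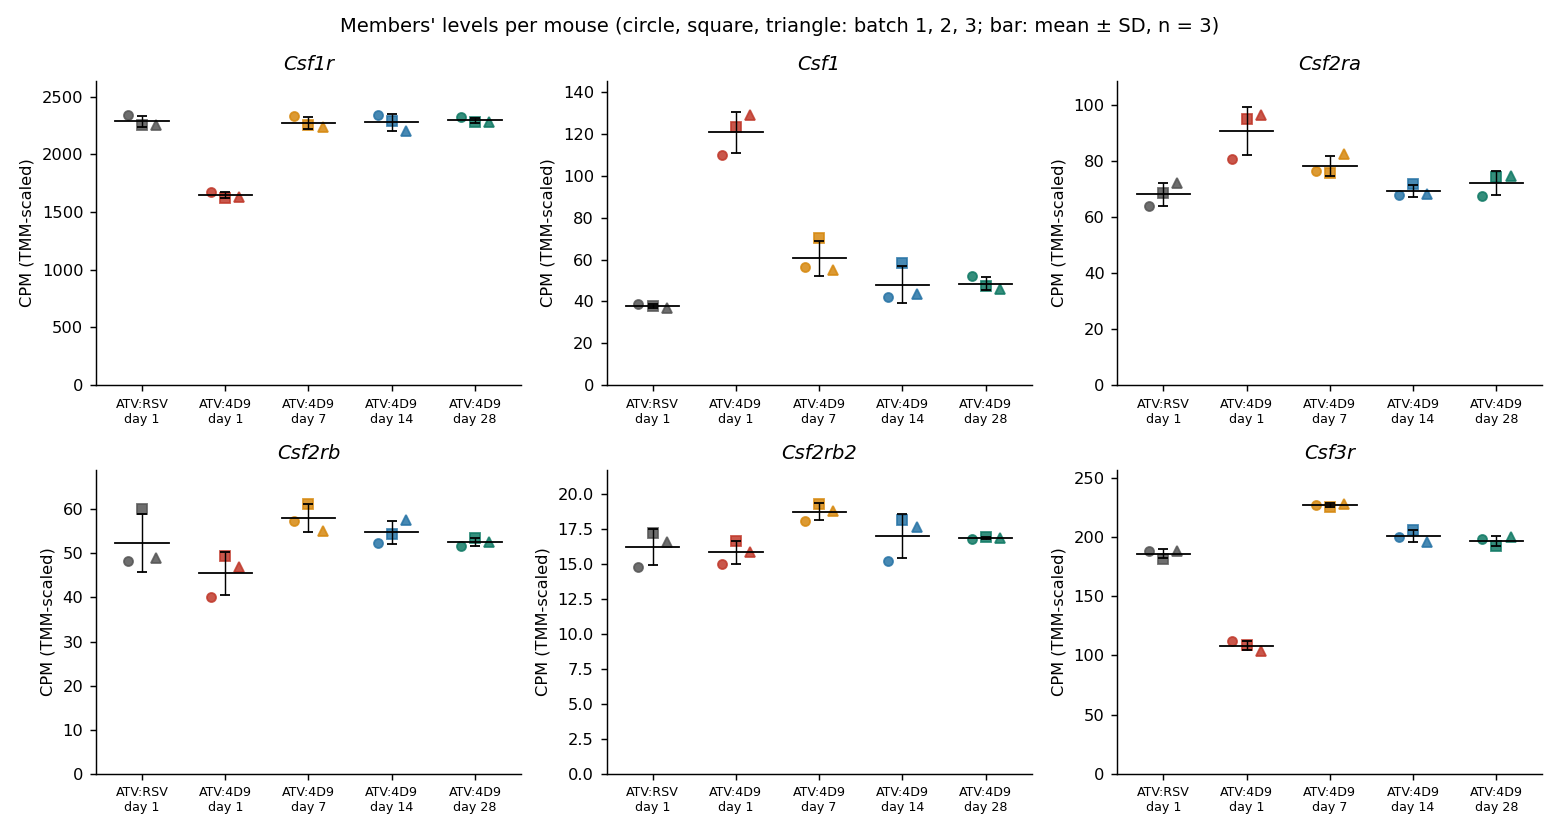
Levels of the 6 members in each mouse as TMM-scaled CPM (y axis, linear, from 0) in the 5 groups (x axis), 1 point per mouse with the shape giving the batch, a line at the mean and a bar of ± 1 SD (n = 3). At day 1 of ATV:4D9 the 3 points of Csf1 and Csf2ra lie above all ATV:RSV points and those of Csf1r and Csf3r below all of them, and at day 7 the Csf3r points lie above them.

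Csf1, which encodes a ligand of CSF1R, had the largest log2 fold change of the 6 members at day 1. The 3 ATV:RSV mice had 38.7, 37.8 and 36.8 CPM, and the 3 mice at day 1 of ATV:4D9 had 110.0, 124 and 129 CPM. These groups were far apart, and the level was 3.19-fold that of ATV:RSV (log2 fold change 1.67 ± 0.111, SE; adjusted p = 1.80e-09, limma-voom). By day 7 the level was 56.6, 70.4 and 55.1 CPM, below every day 1 mouse and above every control. Csf1 was still called at this day, at 1.59-fold (log2 fold change 0.67 ± 0.115; adjusted p = 0.00235, limma-voom). At day 14 the mice had 42.2, 58.4 and 43.6 CPM, and at day 28 they had 52.1, 47.5 and 45.9 CPM. All 6 of these mice still lay above the highest ATV:RSV mouse, but the adjusted p was 0.594 at day 14 and 1.000 at day 28. The fold over ATV:RSV was 1.25 at day 14 (95% interval 1.06 to 1.49) and 1.28 at day 28 (1.08 to 1.52), unadjusted for the number of genes. Within the batches the log2 difference at day 1 was 1.51, 1.71 and 1.81.

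Csf1 was found in a minority of cells in the controls and in more cells at day 1. A UMI of Csf1 was found in 10.6% ± 0.467 of cells in ATV:RSV and in 35.4% ± 2.32 at day 1 of ATV:4D9. After every cell was thinned to 3385 UMIs, which left out shallower cells (8.69% to 17.8% of a mouse's cells in ATV:RSV and 3.93% to 5.79% at day 1), the shares were 7.38% ± 0.277 and 20.8% ± 2.06. The thinned share was 11.0% ± 1.90 at day 7, 8.70% ± 0.977 at day 14 and 8.32% ± 0.428 at day 28. The values that follow are unthinned, and cells at day 1 were deeper. Cells with at least 5 Csf1 UMIs made up 1.30% ± 0.109 of the controls and 6.48% ± 0.124 of the cells at day 1. The tenth of cells richest in Csf1 held 97.7% ± 1.87 of its UMIs in ATV:RSV and 61.9% ± 3.84 at day 1. With a UMI in only 10.6% of the ATV:RSV cells, the first of these values is nearly fixed by that share. The highest count in a cell was 38 in ATV:RSV, 33 at day 1 and 46 at day 28. No class of cells that should lack these genes was large enough to serve as a background, since only 136 cells had a UMI of at most 2 microglia markers. In those cells (median 1394 UMIs, against 5856 in the others) 3.68% had a Csf1 UMI (95% Wilson interval 1.58% to 8.32%), 13.2% a Csf2ra, 5.15% a Csf2rb and 12.5% a Csf3r UMI, and 33.1% a Csf1r UMI. A Csf2rb2 UMI was seen in 0 of 136 of these shallow cells, which allows a share of cells with a UMI of up to 2.21% (3 counts) and does not limit expression. Intervals and limits cover counting error only.

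Csf1r, the receptor for CSF1, was the most abundant member and ranked 70 of 14260 genes by mean CPM. Its level was 2341, 2257 and 2259 CPM in ATV:RSV and 1678, 1626 and 1634 CPM at day 1 of ATV:4D9, so the groups did not overlap. The change was a log2 fold change of -0.47 ± 0.037 (0.720-fold; adjusted p = 1.37e-08, limma-voom), with -0.48, -0.47 and -0.47 within the 3 batches. Day 7 (2332, 2255 and 2236 CPM), day 14 (2344, 2288 and 2200 CPM) and day 28 (2321, 2285 and 2279 CPM) overlapped ATV:RSV. The fold over ATV:RSV at these days was 0.995, 0.996 and 1.00, and the 95% intervals of the 3 days lay between 0.942 and 1.06. The fall at day 1 was measured in the share of all UMIs, summed over all cells of a mouse. Counted per cell, the same mice had 16.3, 13.8 and 14.6 Csf1r UMIs in ATV:RSV and 15.004, 13.6 and 12.7 at day 1 of ATV:4D9, which overlapped (0.924-fold; two-sided exact permutation p = 0.4 for 3 mice against 3, which does not use the batch). Within each of the 3 batches the mouse at day 1 had the lower value. Total UMIs per cell were higher at day 1, as given above. In each of the 3 deposited clusters described below, the group mean of Csf1r UMIs per cell was lower at day 1 than in ATV:RSV. Without thinning, Csf1r was detected in 99.4% ± 0.370 of cells at day 1 and in 99.8% ± 0.0645 in ATV:RSV, shares near their ceiling. Its locus overlaps that of Hmgxb3 on the opposite strand, whose count was 0.883% of that of Csf1r.

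In CPM, the GM-CSF receptor alpha chain Csf2ra was called higher at day 1, the beta common chain Csf2rb was called lower in a call that depended on the setting, and the interleukin-3 chain Csf2rb2 was not called. Csf2ra was at 63.8, 68.5 and 72.0 CPM in ATV:RSV and at 80.7, 94.9 and 96.4 CPM at day 1 of ATV:4D9. The groups did not overlap, with a log2 fold change of 0.41 ± 0.069 (1.33-fold; adjusted p = 7.25e-05, limma-voom). With library size scaling the groups overlapped (67.3 to 76.2 CPM against 73.1 to 85.6 CPM), the log2 fold change of Csf2ra was 0.17 (adjusted p = 0.0351) and its call over the 5 groups was lost. At day 7 the mice had 76.3, 75.7 and 82.2 CPM, above every control, but the call was missed (log2 fold change 0.20 ± 0.071; adjusted p = 0.144, limma-voom). With the batch as a block this adjusted p was 0.0266. Csf2ra ranged from 67.3 to 74.7 CPM over the 6 mice of days 14 and 28, which overlapped the controls. Per cell, Csf2ra counted 0.445, 0.418 and 0.465 UMIs in ATV:RSV and 0.722, 0.791 and 0.751 at day 1 of ATV:4D9. The thinned share of cells with a UMI was 20.9% ± 1.26 in ATV:RSV and 23.3% ± 1.93 at day 1, where 2 of 3 mice lay above every control.

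Csf2rb, the beta common chain, lies on chromosome 15 (chr15:78325752-78353847, plus strand) and is 20030 bases from Csf2rb2 (chr15:78282507-78305721, minus strand). Csf2rb had 48.3, 60.0 and 48.9 CPM in ATV:RSV and 40.1, 49.3 and 47.0 CPM at day 1 of ATV:4D9. The groups overlapped, with log2 differences of -0.27, -0.28 and -0.06 within the 3 batches. The adjusted p was 0.0440 (log2 fold change -0.20 ± 0.085, limma-voom). This call was kept in 8 of 18 other settings and lost without ATV:RSV replicate 2 (adjusted p = 0.263), without ATV:4D9 day 1 replicate 1 (0.282) or without replicate 3 of that group (0.0549). From day 7 to 28 Csf2rb lay between 51.7 and 61.3 CPM and was not called. Csf2rb2, the interleukin-3 beta chain, had 14.8, 17.2 and 16.6 CPM in ATV:RSV and 14.99, 16.7 and 15.9 CPM at day 1, with a fold of 0.982 and a 95% interval of 0.880 to 1.10. With scaling by library size alone it was called lower at day 1 (log2 fold change -0.27; adjusted p = 0.00707, limma-voom). At day 7 the 3 mice had 18.1, 19.3 and 18.8 CPM, all above the controls (log2 fold change 0.22 ± 0.076; adjusted p = 0.141, limma-voom, and 0.0344 with the batch as a block). The transcripts of these neighbours are alike, so how their reads were split matters. Of all 91-base words of the main Csf2rb transcript, 8.28% also occur in a Csf2rb2 transcript, but 0 of 910 in its last 1000 bases, where a 3′ kit reads.

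In CPM, Csf3r, the G-CSF receptor, fell most at day 1 and was above the controls at day 7. The ATV:RSV mice had 188, 181 and 188 CPM, and the mice at day 1 of ATV:4D9 had 112, 109 and 104 CPM. The groups did not overlap (log2 fold change -0.78 ± 0.040, 0.582-fold; adjusted p = 9.81e-11, limma-voom). At day 7 the level was 227, 225 and 228 CPM, above every mouse of every other group. The change from ATV:RSV was 1.22-fold (log2 fold change 0.29 ± 0.040; adjusted p = 0.000354, limma-voom), and its log2 difference within the batches was 0.27, 0.31 and 0.28. At day 14 (199.8, 206 and 196 CPM) and day 28 (198, 192 and 200.3 CPM) all 6 mice lay above the highest control, with adjusted p of 0.621 and 1.000. The fold was 1.08 at day 14 (95% interval 1.02 to 1.15) and 1.06 at day 28 (0.999 to 1.12). The neutrophil markers, of which there were 8 in the list, summed to 1.19 to 10.4 CPM in 14 mice and to 158 CPM in replicate 3 of day 7, the mouse with 228 CPM of Csf3r. Cells with at least 3 of these markers numbered 9 in all and held 0.0143% of the Csf3r UMIs. Without cells that had 2 or more markers of another cell type, the day 7 log2 fold change of Csf3r was 0.28 (adjusted p = 0.000486, limma-voom).

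**Figure D2:**
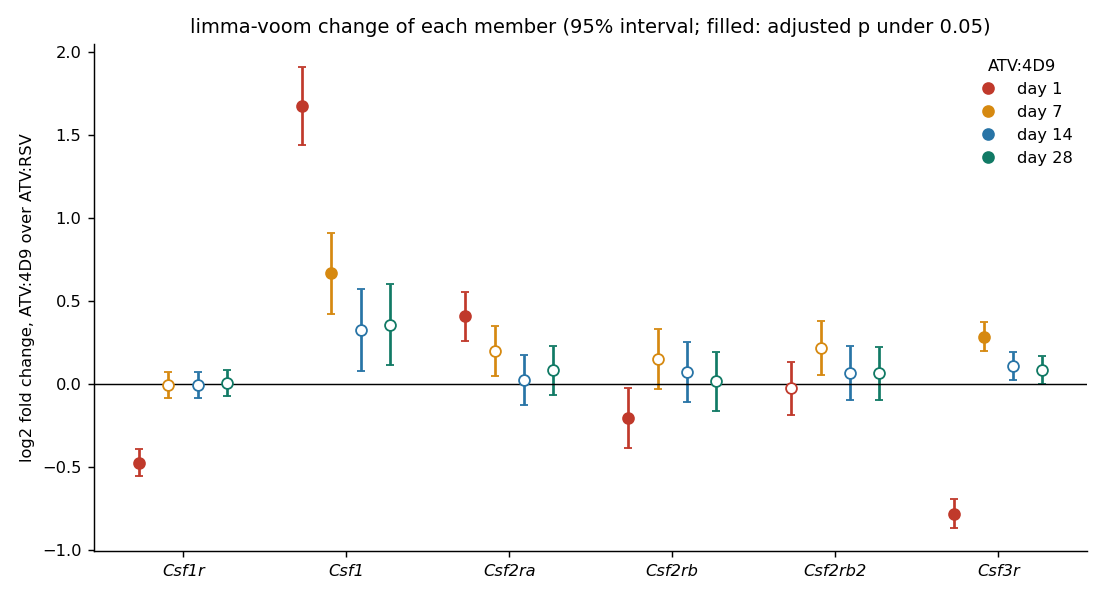
Log2 fold change of each member (x axis, grouped by gene and coloured by day) over the ATV:RSV group (y axis), from limma-voom on sums per mouse (n = 3 per group), with bars for the 95% interval and filled points for an adjusted p under 0.05. Csf1 is highest at day 1 (1.67) and still above 0 at day 28 (0.36, not called), and Csf3r goes from -0.78 at day 1 to 0.29 at day 7.

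Per cell, the receptors and the ligand separated in another way than in TMM-scaled CPM. Cells at day 1 held more UMIs, and counts per cell have no TMM scaling. The part of each in the difference was not tested. Csf1 counted 0.270, 0.231 and 0.238 UMIs per cell in ATV:RSV and 0.984, 1.03 and 1.01 at day 1, a ratio of 4.10. Csf2ra rose 1.70-fold and Csf2rb2 1.26-fold per cell, with all 3 mice at day 1 above all controls. Csf2rb had 0.336, 0.366 and 0.316 UMIs per cell in ATV:RSV and 0.358, 0.411 and 0.366 at day 1, so these groups overlapped, and the mouse at day 1 had the higher value in each of the 3 batches. Csf3r was the only member with all 3 mice at day 1 below the controls on this scale, at 1.31, 1.11 and 1.22 in ATV:RSV and 1.00, 0.906 and 0.811 at day 1 (0.748-fold). The smallest p of 3 mice against 3 is 0.1, which Csf1, Csf2ra, Csf2rb2 and Csf3r reached at day 1 in the exact permutation test. The share of all genes that reach it on this scale was not counted, so these 4 say nothing particular to the members. Total UMIs per cell also differed, with a mean of 6154 in ATV:RSV and 9329 at day 1. Over the 5 groups, a two-sided exact permutation within the batches gave p = 0.000833 for Csf1, 0.00764 for Csf3r, 0.0182 for Csf2ra, 0.0260 for Csf2rb2, 0.126 for Csf1r and 0.227 for Csf2rb. Of these 6 tests, 4 passed 0.05 with Benjamini-Hochberg correction for 6. With batch 1, 2 or 3 left out, 0, 0 and 2 members passed. Of the thinned shares of cells, all 6 passed over the 5 groups with the same correction (exact permutation p of 0.000347 to 0.0345), and 2, 0 and 0 passed without batch 1, 2 or 3. These tests on cells were run on the members alone, and with 66.5% of all genes called by the F test over the 5 groups the counts of 4 and 6 say nothing particular to the members. Csf3r was seen in 47.1% ± 1.21 of thinned cells in ATV:RSV, 28.5% ± 1.59 at day 1 and 50.5% ± 1.60 at day 7. Its mean UMIs per cell at day 7 overlapped those of ATV:RSV. The thinned share of Csf2rb was 16.2% ± 1.78 and 12.7% ± 0.967 in ATV:RSV and at day 1, and that of Csf2rb2 was 5.49% ± 0.469 and 4.82% ± 0.239.

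**Figure D3:**
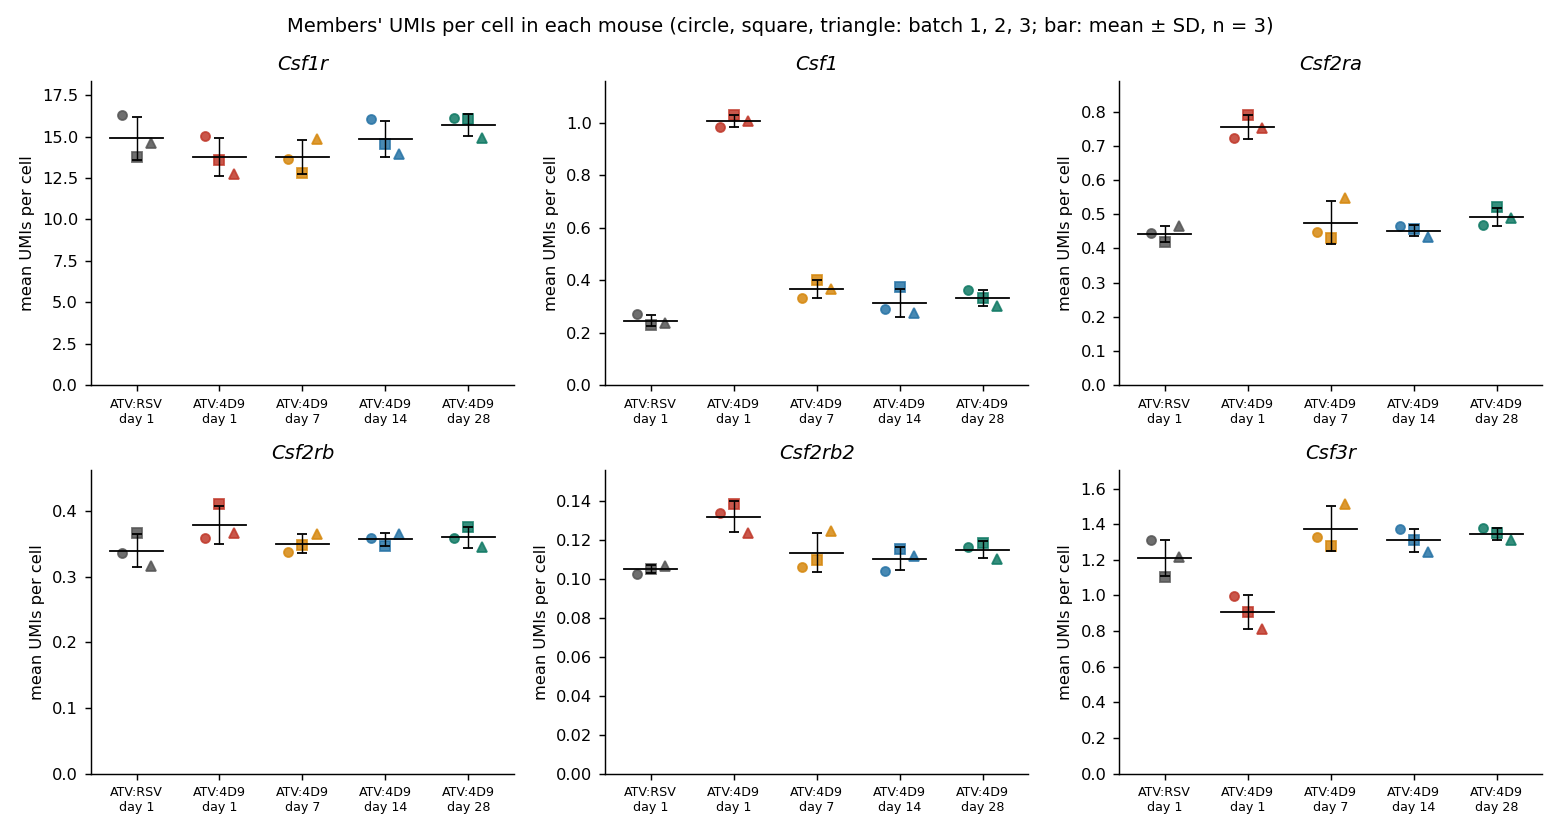
Mean UMIs per cell of the 6 members in each mouse (y axis, linear, from 0) in the 5 groups (x axis), 1 point per mouse with the shape giving the batch, a line at the mean and a bar of ± 1 SD (n = 3). On this scale the Csf1r points at day 1 (12.7 to 15.004) overlap those of ATV:RSV (13.8 to 16.3), and the Csf1 points at day 1 (0.984 to 1.03) lie far above the rest.

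From day 1 to day 7 every member was called, where 66.9% of all genes were called. Each went in the direction opposite to its day 1 log2 fold change. For Csf2rb2 that day 1 direction was not settled in the main fit (0.982-fold, 95% interval 0.880 to 1.10). Csf1 fell by 1.01 and Csf2ra by 0.21 on the log2 scale, and Csf3r, Csf1r, Csf2rb and Csf2rb2 rose by 1.07, 0.47, 0.35 and 0.25 (adjusted p from 3.62e-12 for Csf3r to 0.0146 for Csf2ra, limma-voom). The call of Csf2ra was lost with library size scaling and without ATV:4D9 day 1 replicate 2 (adjusted p = 0.0569), without its replicate 3 (0.0626) or without day 7 replicate 2 (0.0548). That of Csf2rb2 was lost without day 1 replicate 1 (0.0524) and without cells with a UMI of Mki67 or Top2a (0.0602). This comparison shares the day 1 mice with those above and is not a separate sample of them. Between day 7 and day 14 no member was called by limma-voom (background 0.912%), and 3 members had an unadjusted p under 0.05, as did 7.91% of all genes. Csf3r came nearest, with a log2 fold change of -0.18 ± 0.040 and an adjusted p of 0.0549 (limma-voom), which was 0.0330 with the batch as a block, 0.0489 with RLE scaling, 0.0397 without cells with a UMI of Mki67 or Top2a, and 0.000643 with DESeq2. Between day 14 and day 28 no member was called or had an unadjusted p under 0.05 (background 0%, with 338 genes at an unadjusted p under 0.05 in limma-voom, 0 called by edgeR and 45 by DESeq2).

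In the 3 deposited clusters, which the authors made from the same cells and genes, the levels are a description only. Cluster 2 held 5607 to 6597 cells of each mouse at day 1 of ATV:4D9 and 74 to 245 cells of any other mouse. Csf1 differed most between the clusters. Over the 12 mice outside day 1 of ATV:4D9, its median was 16.6 CPM in cluster 1, 53.9 CPM in cluster 0 and 265 CPM in cluster 2, on the scale of CPM within a mouse and cluster, with no TMM scaling. The ratio of cluster 0 to cluster 1 was between 2.54 and 4.65 in each of these mice. The few cells of cluster 2 outside day 1 held more Csf1 (171 to 520 CPM) than the cells of cluster 2 at day 1 (103 to 115 CPM). Within cluster 0, Csf1 was at 44.3 ± 1.95 CPM in ATV:RSV and 89.2 ± 17.5 CPM at day 1, and within cluster 1 it was at 13.9 ± 2.28 and 25.4 ± 5.89 CPM. These clusters held only 180 to 555 cells of a mouse at day 1.

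The receptors varied less between the clusters. Their CPM here are also within a mouse and cluster, with no TMM scaling. Over all cells, Csf1r without that scaling had a mean of 2418 CPM in ATV:RSV and 1474 at day 1. With it the means were 2286 and 1646 CPM, a smaller fall. Whether differences within clusters at day 1 hold with TMM scaling was not tested. Csf1r in the 12 mice outside day 1 of ATV:4D9 was at a median of 2510 CPM in cluster 1, 2306 in cluster 0 and 1743 in cluster 2. Csf3r followed the same order, at 228, 199 and 173 CPM. The order turned when counted per cell, where cluster 1 was lowest: Csf1r had a median of 11.6 UMIs per cell in cluster 1, 16.9 in cluster 0 and 15.5 in cluster 2, and Csf3r had 1.04, 1.47 and 1.44. The median UMIs of a cell were 3677 to 4773 in cluster 1 of these mice, 5284 to 7060 in cluster 0 and 6278 to 9090 in cluster 2. Csf3r was lower at day 1 of ATV:4D9 than in ATV:RSV in every cluster, with 144 ± 16.1 against 189 ± 5.55 CPM in cluster 0, 169 ± 11.0 against 218 ± 4.43 in cluster 1 and 93.9 ± 4.16 against 145 ± 8.09 in cluster 2. The day 7 mice had the highest Csf3r group mean in each cluster, at 219, 240 and 200.2 CPM. Csf1r was also lower at day 1 than in ATV:RSV in every cluster, with no overlap in CPM. It was at 2025 ± 55.8 against 2363 ± 31.8 CPM in cluster 0. In cluster 1 it was at 2152 ± 105 against 2590 ± 76.8, and in cluster 2 at 1443 ± 29.5 against 1830 ± 96.1. Its mean UMIs per cell in clusters 0, 1 and 2 were 11.0, 8.20 and 14.2 at day 1. In ATV:RSV they were 17.5, 11.3 and 16.7, with overlap in clusters 1 and 2. Over the 12 mice outside day 1 of ATV:4D9, the medians in clusters 0, 1 and 2 were 71.9, 78.5 and 81.8 CPM for Csf2ra, 56.4, 51.5 and 56.3 CPM for Csf2rb, and 18.1, 18.1 and 17.6 CPM for Csf2rb2. In cluster 0, Csf2ra was at 74.4 ± 10.7 CPM at day 1 and 68.8 ± 4.37 CPM in ATV:RSV. In cluster 1 it was at 103 ± 23.2 and 77.8 ± 4.69 CPM. In cluster 2, where ATV:RSV had 76 to 165 cells a mouse, it was at 81.0 ± 6.81 and 97.0 ± 30.2 CPM. The groups overlapped in each cluster.

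**Figure D4:**
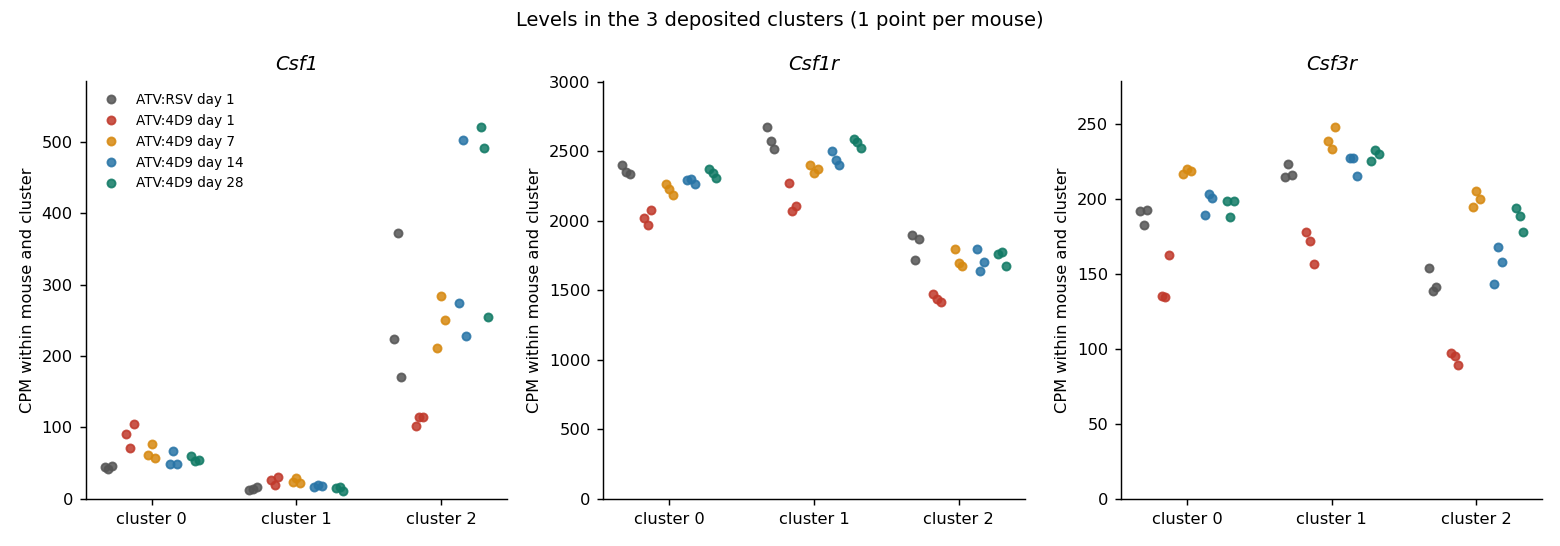
Csf1, Csf1r and Csf3r in the 3 deposited clusters (x axis) as CPM within a mouse and cluster with no TMM scaling (y axis, linear, from 0), 1 point per mouse, coloured by group. Csf1 outside day 1 runs from 11.7 to 29.3 CPM in cluster 1 and from 171 to 520 CPM in cluster 2, while Csf3r at day 1 lies lowest in each cluster.

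Dividing cells were frequent at day 1, and the members' levels in them are described beside those in the other cells of cluster 2. Cells with a UMI of Mki67 or Top2a, genes of dividing cells, numbered 1389, 2003 and 1474 in this cluster of the 3 mice. Csf1 was at 116, 115 and 119 CPM in them and at 98.2, 114 and 113 CPM in the others. Csf3r was at 91.6, 89.4 and 79.4 CPM in dividing cells and at 99.1, 98.6 and 93.6 CPM in the others. Csf1r was at 1481, 1458 and 1421 CPM and at 1471, 1430 and 1412 CPM. In CPM, Csf3r was lower and Csf1 and Csf1r were slightly higher in the dividing cells of each mouse. Cells chosen by a UMI were deeper, with median UMIs of 11408, 10479 and 10317 against 9290, 8356 and 7997. Per cell, Csf3r was higher in them, at 1.12, 1.00 and 0.860 UMIs against 0.998, 0.902 and 0.808. With all 5156 cells with a UMI of Mki67 or Top2a left out of every group and cluster, the log2 fold changes at day 1 of Csf1, Csf1r, Csf2ra and Csf3r were called in the same direction. Csf2rb was no longer called.

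The other ligands and receptor chains of these families were almost absent from these CD45-enriched cells, which says nothing of other cells of the brain. Over all 15 mice, Il34, the other CSF1R ligand, had 40 UMIs, Csf2 (GM-CSF) 2, Csf3 (G-CSF) 4, Il5 1, Il5ra 5 and Il3 0. None of these passed the filter. Il3ra, the alpha chain of the interleukin-3 receptor, was the only tested gene of the 7, at 2.56 ± 0.267 CPM in ATV:RSV and 4.11 ± 0.278 CPM at day 1 (log2 fold change 0.69 ± 0.174; adjusted p = 0.00225, limma-voom).

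At day 1 the calls among genes that act near CSF1R in the cell were about as frequent as among all genes, of which 34.7% were called higher and 34.6% lower. Of 21 proximal signalling genes, 7 were called higher and 8 lower, with a median log2 fold change of -0.07 beside -0.05 over all genes tested. Dok2, a docking protein of tyrosine kinases, went from 0.351 ± 0.0822 to 5.89 ± 1.95 CPM (log2 fold change 3.95 ± 0.388). Pik3cd, a catalytic subunit of PI3-kinase, went from 64.2 ± 1.75 to 35.7 ± 1.96 CPM (-0.84 ± 0.071), and Cbl, a ubiquitin ligase that acts on activated receptors, from 131 ± 12.1 to 78.5 ± 7.58 CPM (-0.74 ± 0.097). The adjusted p of these 3 genes lay between 3.04e-08 and 5.03e-06 (limma-voom). None of the 21 was called at day 7, 14 or 28. With scaling by library size alone the median of all genes at day 1 was -0.29, in place of -0.05, and the calls over all genes split into 3690 higher and 6959 lower, in place of 4942 and 4930, so directions of small changes depend on this choice.

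Of 14 JAK-STAT genes, the route of the beta common and G-CSF receptors, 5 were called higher and 5 lower at day 1 (median log2 fold change 0.02), again beside 34.7% and 34.6% of all genes. Socs2, an inhibitor of cytokine receptors, rose by 1.69 ± 0.187 on the log2 scale (adjusted p = 7.71e-07, limma-voom). Stat5b fell by 0.92 ± 0.062 and Stat5a by 0.44 ± 0.116, both transcription factors downstream of the beta common chain. At day 7, 1 of the 14 was called higher than in ATV:RSV, where 3.98% of all genes were called in either direction, and none was called at day 14 or 28.

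Of 9 transcription factors of macrophage receptor genes, 6 were called lower and 1 higher at day 1 (median log2 fold change -0.33), beside 34.6% of all genes called lower and 34.7% higher, and none was called at a later day. Cebpa, which encodes C/EBP alpha, had 376 ± 51.2 CPM in ATV:RSV and 139 ± 15.7 CPM at day 1 (log2 fold change -1.43 ± 0.133; adjusted p = 1.06e-07, limma-voom), and Egr2 had 50.5 ± 8.45 and 24.7 ± 3.95 CPM (-1.04 ± 0.224). Spi1, which encodes PU.1, had 416 ± 28.4 and 493 ± 39.5 CPM (0.25 ± 0.075; adjusted p = 0.00872), a call lost with library size scaling (adjusted p = 0.961). Irf8 had 535 ± 7.58 and 489 ± 25.9 CPM (-0.13 ± 0.048; adjusted p = 0.0251), a call lost with RLE scaling (0.0664). Of 5 genes of receptor shedding, 3 were called higher at day 1 and none lower, where 69.2% of all genes were called, so the count in so short a list says little. Adam17, the protease that sheds CSF1R, had 88.6 ± 2.92 CPM in ATV:RSV and 111 ± 3.82 CPM at day 1 (0.32 ± 0.046), Rhbdf2, which helps its maturation, had 5.66 ± 0.222 and 9.56 ± 1.56 CPM, and Adam10 had 133 ± 2.31 and 143 ± 1.63 CPM, a direction that turned with library size scaling (log2 fold change -0.13). Furin, which was called at day 7 (adjusted p = 0.0203), was chosen here after its values were seen.

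Genes with the pattern most like a member were ranked by Pearson r of log2 CPM among 8890 genes of at least 5 CPM. Over all 15 mice, which share the gap between day 1 and the rest, the nearest were Hsd17b11, Fcrl1 and Il16 for Csf1r (r of 0.996 to 0.997), Glipr1, Cdkn1a and Pdgfa for Csf1 (0.968 to 0.971), Ctsf, Trf and Pld4 for Csf3r (0.989 to 0.991), Rtcb, Rbms1 and Apobec3 for Csf2ra (0.932 to 0.936), Purb, Ccnl1 and Mgat4a for Csf2rb (0.909 to 0.960), and App, Epb41l3 and Mpp7 for Csf2rb2 (0.843 to 0.885). Over the 12 mice outside day 1 of ATV:4D9 the nearest to Csf1 were Cd84, Irf8 and Tlr12 (0.902 to 0.946), and to Csf3r they were Cxcl16, Cd86 and Ptrhd1 (0.978 to 0.981). For Csf1r these were Rtn3, Rnf25 and Arid2 (0.923 to 0.964), for Csf2ra Gtf2f2, Plgrkt and Eif2a (0.917 to 0.943), for Csf2rb Purb, Slc29a3 and Aplp2 (0.898 to 0.926), and for Csf2rb2 Ppip5k2, Gaa and Epb41l3 (0.877 to 0.883). The pair Csf1 and Csf3r showed how much the day 1 group sets these values: their r was -0.79 over 15 mice and 0.85 over the 12. The 12 mice fall into 4 groups, so these are descriptions with no test.

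Cells with a UMI of 2 members were counted as a description. For each pair of Csf1, Csf2ra, Csf2rb, Csf2rb2 and Csf3r, cells with a UMI of both were counted against the number expected within bins of cluster and depth of the same mouse. The ratio of observed to expected had a median over the 15 mice between 1.01 for Csf1 with Csf2rb and 1.05 for Csf2rb with Csf2rb2, so the medians of all 10 pairs were slightly above 1. In single mice the ratios ran from 0.893 to 1.17. Depth still varied within each bin, and its part in these ratios was not tested. Csf2rb2 with Csf3r was above 1 in all 15 mice (1.002 to 1.05). Csf2ra and Csf2rb, the chains of the GM-CSF receptor, were found together in 579 to 1179 cells of a mouse, at a ratio of 0.975 to 1.06.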

How the data were processed

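Single-cell libraries of 15 mice were grouped by the antibody and day in the labels. Reads were aligned by the authors to mm10 in Cell Ranger (4.0.0 per the submitters' processing notes, while the methods name other versions), and the cells were clustered in Seurat. The deposited matrix held raw UMI counts per gene and cell, and a second deposited table gave for each cell its total UMI count, mitochondrial percent, cluster number and mouse. Filters on cells and the treatment of doublets are not given in the sources used here. Matrix sums equalled the deposited totals in 102043 of 102043 cells.

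Counts were summed per mouse (cells are not replicates), filtered with filterByExpr (minimum count 10, total 15), scaled by TMM and fitted with limma-voom (R 4.3.3 with limma 3.58.1 and edgeR 4.0.16) as group means over all 15 mice. P-values were adjusted over all 14260 genes. The fit was also run on simulated counts in which few genes changed. With 69.2% of all genes called at day 1, that setting does not test the scaling at this day. Values per cell and shares of cells were tested by exact two-sided permutation of groups within batches (14400 arrangements). ± is the SD over 3 mice beside a level and the SE beside a log2 fold change. Alternatives were library size and RLE scaling, edgeR quasi-likelihood, DESeq2 1.42.0, 2 other filters, the batch as a block, 2 groups only, 4 sets of cells and leaving out each mouse.

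The members were given by name, and the pathway lists were written with earlier results of these data known. Named were the members, all other ligands and receptor chains, and in each other list the 2 highest and 2 lowest called log2 fold changes at day 1; likeness took the 3 highest r. Some genes that this rule or the marker list holds are not reported here. The labels state that each batch held all 5 conditions, so the batch pairs the mice by design. The mean r of deviations from the group means was 0.0334 within batches (30 pairs, -0.273 to 0.279). It was -0.0164 between them (-0.365 to 0.357), so the ranges overlapped. The main fit does not use the batch. No 2 libraries of a group were copies (chi-square per degree of freedom at least 10.6). A 16th animal in the labels, a control, was not analysed here.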

Additional observations from a re-analysis of the deposited data

How the results depend on the processing

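The 12 alternative settings and the leaving out of each mouse gave Csf1, Csf1r, Csf2ra and Csf3r the same direction at day 1 with an adjusted p under 0.05 in each, and Csf1 and Csf3r likewise at day 7. The day 1 log2 fold change ran from 1.43 to 1.75 for Csf1, from -0.71 to -0.45 for Csf1r, from 0.17 to 0.50 for Csf2ra and from -1.02 to -0.70 for Csf3r, with the smallest rise of Csf2ra under library size scaling. With the replicate block, 4 members were called at day 7 against ATV:RSV in place of 2 (Csf2ra and Csf2rb2 were added) and 1 at day 14 against day 7 in place of 0. That 1 was Csf3r, also called with RLE scaling (1 member), with DESeq2 (1) and without cells with Mki67 or Top2a (1). The block changed no other member's call against ATV:RSV or at day 7 against day 1, and over the 5 groups it called 6 members in place of 5. Library size scaling also called 5 over the 5 groups, with Csf2rb2 in place of Csf2ra. The cause of these differences was not tested.

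With a mouse left out, the members called numbered 4 to 5 at day 1, 2 at day 7, 0 at days 14 and 28, 5 to 6 at day 7 against day 1, 0 at day 14 against day 7 and at day 28 against day 14, and 4 to 6 over the 5 groups. With a batch left out, 0 to 2 members passed per cell and 0 to 2 as shares of cells, where only 120 arrangements remain. Adam10 at day 1 turned from 0.11 to -0.13 with library size scaling. That scaling also moved the split of calls over all genes from 426 higher and 142 lower to 317 and 882 at day 7, from 4703 and 4835 to 5908 and 3971 at day 7 against day 1, and from 8 and 122 to 15 and 71 at day 14 against day 7. Over all genes, the 568 calls of day 7 became 1199 with library size scaling and 1014 with the block. The 57 of day 14 became 131 with DESeq2, 122 with the block, 19 with library size scaling, 38 with thinned cells and 0 with only the 2 groups in the fit. The 0 of day 28 became 14 with DESeq2 and 2 with the block. The 130 of day 14 against day 7 became 233 with DESeq2 and 86 with library size scaling, and the 0 of day 28 against day 14 became 45 with DESeq2, 19 with the block and 13 with every gene of at least 1 UMI. Leaving out a mouse gave 331 to 489 calls at day 7 (331 when ATV:RSV replicate 2 was left out, 334 when it was replicate 3 of day 7), 0 to 52 at day 14 (16 when ATV:RSV replicate 3 was left out, and 0 or 30 when replicate 1 or 2 of day 14 was) and 31 to 81 at day 14 against day 7, where each of the 6 mice lowered the count by over 1.5 times. The least counted member was Csf2rb2, with 622 to 1020 UMIs a mouse.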
